A study of Homo sapiens with 18 samples.

Results

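The genes described here encode the partners that MLL, the product of KMT2A, needs to reach chromatin and to modify histones: MEN1 (menin), PSIP1 (LEDGF), WDR5, RBBP5, ASH2L, DPY30, HCFC1, TASP1, KAT8 and CREBBP. They were chosen by gene symbol from a written list, and all 10 were found among the 54425 genes of the count table. All 10 also passed the filter on low counts, which left 17660 genes for testing. ATAC-seq reads, which mark DNA open to a transposase, had been counted per gene in HEK293T cells, which derive from human embryonic kidney. The values are therefore counts of reads on each gene's DNA, taken here as a measure of its accessibility, and not the amount of its RNA or protein. Whether anything other than accessibility, such as the number of gene copies, moved these counts was not tested. There were 6 groups of 3 libraries. MLL-AF4 cells carried inducible MLL-AF4 and were taken on day 3 or day 28. AF4-MLL cells carried inducible AF4-MLL and were taken on the same days. Co-expression cells carried constitutive MLL-AF4 plus inducible AF4-MLL, again with both days. All groups shared the induction of the inducible construct by doxycycline at 1 µg/ml for 48 h. Per the study, this induction ended on day 3, and the inducible constructs stayed shut down until day 28. By design, only the constitutive MLL-AF4 of the co-expression cells was thus meant to be expressed on day 28. The labels call all cells stably transfected. Per the study's methods, MLL-AF4 of the co-expression cells was integrated by the Sleeping Beauty transposase and selected for before the second transfection. By the same account, their AF4-MLL plasmid was brought in transiently, selected during the 48 h of induction and lost thereafter. How the cells with a single inducible construct were selected is not given in the sources used here, and cells without a construct were not analysed here. Settings were therefore compared with each other and day 28 with day 3.

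As background, MLL is the methyltransferase of a COMPASS complex, which methylates lysine residues of histone H3 at active promoters. Menin bound to the N-terminal part of MLL recruits LEDGF, which reads methylated nucleosomes, and this end is kept in MLL-AF4. The C-terminal SET domain, kept in AF4-MLL, reaches its full activity together with WDR5, RBBP5, ASH2L and DPY30. The protease taspase 1 cuts MLL and AF4-MLL, host cell factor 1 (HCFC1) bridges such complexes to DNA-binding factors, and the acetyltransferases MOF (KAT8) and CBP (CREBBP) are recruited by MLL. The comparisons ask whether ATAC-seq counts on the genes that encode these proteins differed between the construct settings or between the days.

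The libraries held 442159 to 3539937 counts. The 37 mitochondrial genes took 32.7% to 45.6% of them on day 3 and 63.6% to 68.5% on day 28. Outside these genes, the MLL-AF4 libraries of day 3 had 352673 to 398640 counts, compared with 591071 to 662727 in co-expression libraries of that day, and the range over all libraries was 297567 to 1116385. Counts on KMT2A, parts of which are present in the constructs, averaged 35.7 and 45.4 CPM (counts scaled to a common library size) in MLL-AF4 cells on day 3 and day 28. They averaged 96.5 and 94.0 CPM in AF4-MLL cells and 52.8 and 67.4 CPM in co-expression cells. Between days, KMT2A in co-expression cells differed by a log2 value of 0.39 (edgeR adjusted p 0.23). Co-expression cells lay above MLL-AF4 cells at KMT2A by 0.56 on day 3 (edgeR adjusted p 0.088) and by 0.62 on day 28 (edgeR adjusted p 0.0072). Counts on the construct and on the chromosomal gene cannot be told apart, and the loss of the AF4-MLL plasmid was not tested. All 8 marker genes fixed for HEK293T passed the filter, with a summed level of 178 to 231 CPM in all libraries. Of 6 blood cell markers 4 passed, with a summed level of 48.5 to 66.3 CPM, and CD79A and CD3E did not pass, at medians of 3 and 2 counts. Of 4 fibroblast markers 3 passed, at 33.5 to 57.9 CPM. Genes silent in a cell line also collect reads in this assay, and these levels therefore do not identify cells.

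Promoter sequences of RefSeq (GRCh38.p14, 250 bases before to 50 bases after a start site) were found for 6 of the members: MEN1, PSIP1, WDR5, RBBP5, TASP1 and CREBBP. MLL has a CXXC domain that binds unmethylated CpG dinucleotides, and CpG content was therefore compared. At the outermost start site, CREBBP held the most CpG dinucleotides (36, with 70.3% G and C) and WDR5 the fewest (6, with 51.3%). PSIP1 held 33, MEN1 and TASP1 20 each and RBBP5 18. The median over 35116 promoters was 14, and 12.7% of them held as many as CREBBP or more. WDR5 has 4 listed start sites, whose promoters held 6 to 45 CpG, and the count is thus one of the site and not of the gene. The extremes are printed below from 5′ to 3′ on the strand of the gene, with each CpG in capitals. WDR5 lies on the plus strand at chr9:134134949-134135248 and CREBBP on the minus strand at chr16:3880664-3880963.
WDR5: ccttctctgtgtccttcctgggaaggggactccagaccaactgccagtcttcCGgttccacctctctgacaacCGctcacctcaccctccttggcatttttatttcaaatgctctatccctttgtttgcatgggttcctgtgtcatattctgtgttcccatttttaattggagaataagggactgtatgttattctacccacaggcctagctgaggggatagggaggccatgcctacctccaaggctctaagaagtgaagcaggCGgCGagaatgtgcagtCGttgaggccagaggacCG
CREBBP: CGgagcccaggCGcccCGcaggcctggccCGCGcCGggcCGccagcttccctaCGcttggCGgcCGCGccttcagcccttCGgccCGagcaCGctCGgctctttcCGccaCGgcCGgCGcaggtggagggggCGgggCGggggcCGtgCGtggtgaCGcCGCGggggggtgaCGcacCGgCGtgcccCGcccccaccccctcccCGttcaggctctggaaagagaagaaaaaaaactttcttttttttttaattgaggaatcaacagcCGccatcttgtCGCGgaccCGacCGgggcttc
Both strands of the 6 promoters were searched for 6 short motifs. The CCAAT box of NF-Y was present in 3 of them (MEN1, WDR5, TASP1) and in 34.6% of all promoters. The GC box GGGCGG was present in 2 (TASP1, CREBBP) and in 45.0% of all, and the ETS core CCGGAAG in 2 (WDR5, TASP1) and in 10.3% of all. The NRF1 core GCATGCGC occurred in TASP1 (3.05% of all promoters) and the YY1 core AAGATGGCG in CREBBP (1.75%). The ZNF143 core ACTACAA, to whose partner THAP11 host cell factor 1 binds, occurred in none of the 6 and in 2.77% of all.

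Counts on the members were modest, which sets the size of change that could be seen. A library held 221 to 647 counts on the 10 genes together. HCFC1 (mean 98.9 counts per library), MEN1 (84.5), ASH2L (74.9) and KAT8 (48.8) were the best covered. CREBBP (28.7), WDR5 (28.2), DPY30 (18.8), PSIP1 (15.5), TASP1 (13.9) and RBBP5 (13.2) had fewer. Because the region counted per gene is not given in the sources used here, levels are not compared between genes. Counting error alone gives a coefficient of variation of 10.3% for HCFC1 and 29.8% for TASP1 (medians over the 6 groups). The observed spread was larger than counting error in 30 of the 60 combinations of gene and group, and the chi-square statistic over all of them was 151 on 120 degrees of freedom. Standard errors (SE) of the log2 differences accordingly ran from 0.12 to 0.39.

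**Figure D1:**
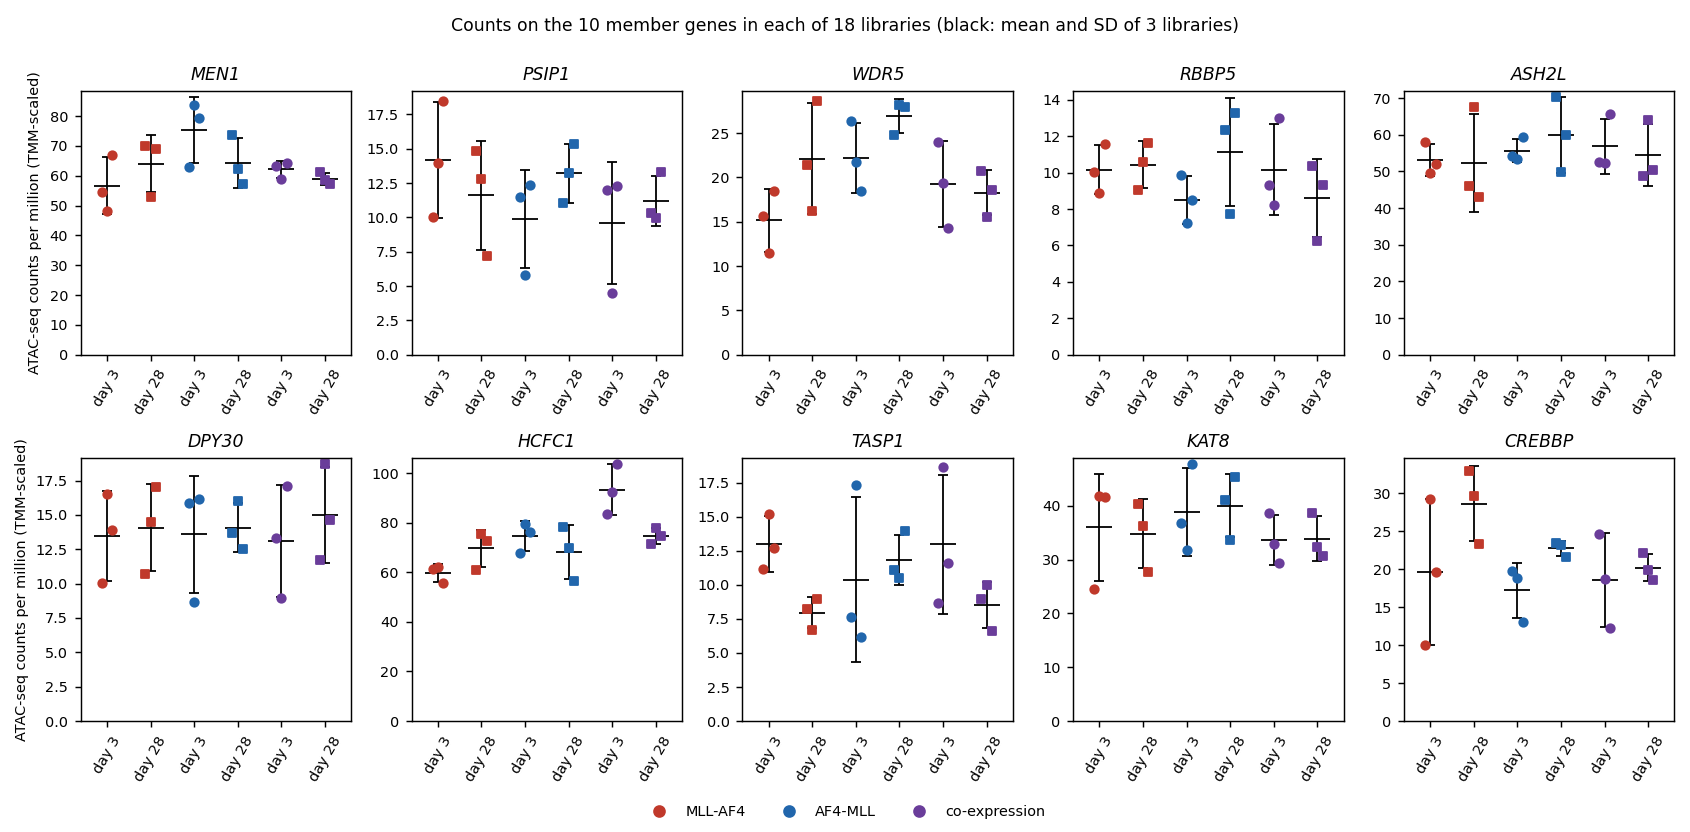
ATAC-seq level of each member in CPM (y axis, scaled by TMM library sizes) in the 3 libraries of each group (x axis, day 3 as circles and day 28 as squares, coloured by construct setting), with the mean and SD in black. On day 3, co-expression cells at HCFC1 (83.3 to 103.8 CPM) sit above the other 15 libraries, while most members overlap between groups.

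Over the 9 comparisons of days or settings, 1 of 90 tests of a member passed an adjusted p of 0.05 (edgeR quasi-likelihood F test, Benjamini-Hochberg over all 17660 genes). It was HCFC1, which was higher in co-expression than in MLL-AF4 cells on day 3. In that comparison 1.81% of all genes tested were called. No member was called in the other 8, where the unadjusted p was under 0.05 in 7 tests of 80 (8.26% to 15.8% of all genes in these comparisons). DESeq2 called HCFC1 in the same comparison and none of the other members to which it gave an adjusted p. The percentage of all genes called between days was 2.87 in MLL-AF4 cells, 0.606 in AF4-MLL cells and also 0.606 in co-expression cells. Between settings on day 3 it was 1.28 for co-expression against AF4-MLL cells and 0.142 for AF4-MLL against MLL-AF4 cells. On day 28 it was 1.17 for co-expression against MLL-AF4, 1.69 for co-expression against AF4-MLL and 0.0793 for AF4-MLL against MLL-AF4 cells. With a single call, the members cannot be set apart from other genes. The scaling makes these differences relative to the bulk of genes: by library size alone the median of all genes fell by 0.87 to 1.07 between days and 7 to 10 members were called lower on day 28. Medians of the log2 differences of the members lay between −0.16 (co-expression against AF4-MLL on day 28) and 0.17 (AF4-MLL cells between days). Those of all genes lay between −0.0041 and 0.0091, but the scaling holds them near 0, and medians of 10 genes vary more. The members are therefore not set apart by these medians. The widest single difference was −0.73.

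**Figure D2:**
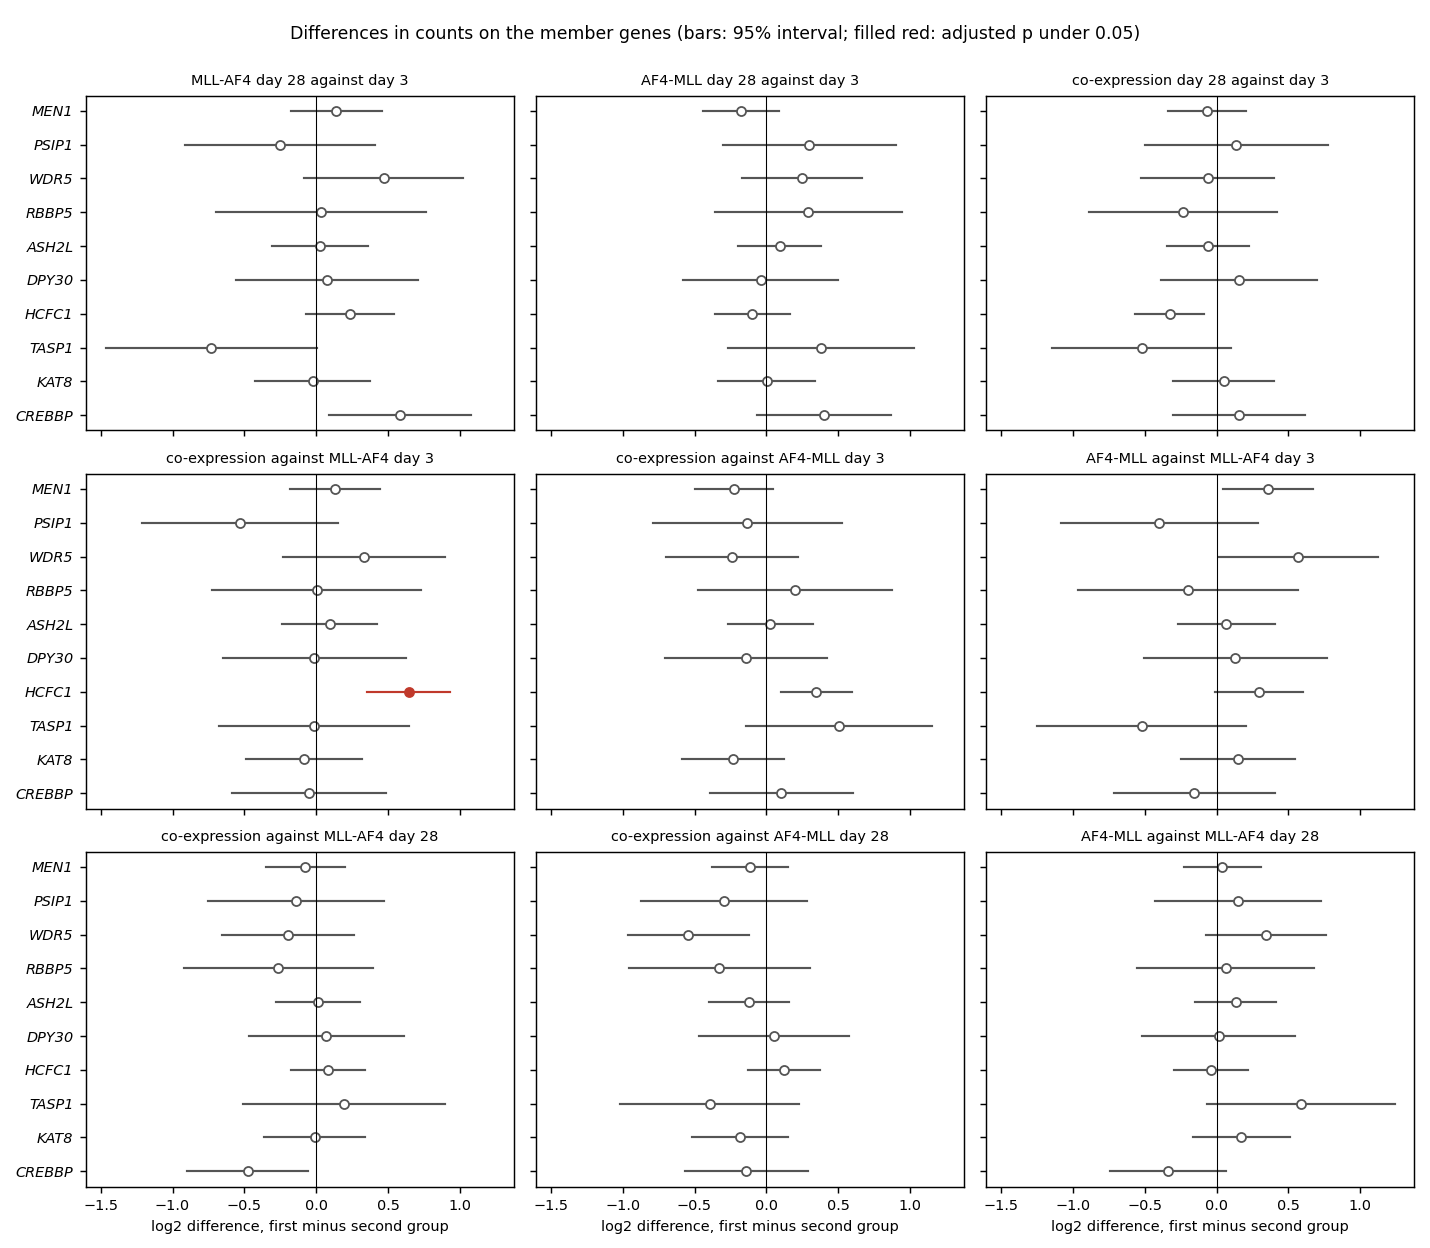
Log2 difference (x axis, first minus second group) of the 10 members (y axis) with its 95% interval in each of the 9 comparisons of days and settings. The filled point, HCFC1 in co-expression against MLL-AF4 cells on day 3 at 0.64, is the only one with an adjusted p under 0.05.

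HCFC1 encodes host cell factor 1, which is shared by COMPASS complexes and links them to cell cycle genes. It lies on chromosome X (GRCh38, 153947557 to 153971818). Its levels on day 3 were 61.4, 62.2 and 55.5 CPM in MLL-AF4 cells, 68.0, 79.5 and 76.3 CPM in AF4-MLL cells and 83.3, 92.5 and 103.8 CPM in co-expression cells. The 3 groups did not overlap. On day 28 the levels were 61.0, 75.3 and 72.5 CPM in MLL-AF4 cells, 78.1, 69.6 and 56.5 CPM in AF4-MLL cells and 71.5, 77.8 and 74.4 CPM in co-expression cells, and all of these overlapped. Co-expression cells on day 3 averaged 93.2 ± 10.3 CPM (SD, n = 3) and MLL-AF4 cells 59.7 ± 3.6 CPM. The log2 difference was 0.64 (SE 0.15, 95% interval 0.36 to 0.93, edgeR adjusted p 0.0041), and the gene ranked at place 65 by p. The call did not hold when MLL-AF4 replicate 3 was left out (log2 0.60, edgeR adjusted p 0.051), the lowest of all 18 libraries for HCFC1. It was kept in the other 26 of 27 alternatives, and over all of them the log2 difference ran from 0.56 to 0.79 and the adjusted p from 0.00080 to 0.051. Many of these alternatives left out a library of a group outside this comparison and could hardly move it (log2 0.641 to 0.649).

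In the other comparisons HCFC1 gave no call. Co-expression cells lay above AF4-MLL cells on day 3 by 0.35 (SE 0.13, 95% interval 0.10 to 0.60, edgeR adjusted p 0.17). AF4-MLL cells lay above MLL-AF4 cells by 0.29 (SE 0.16, edgeR adjusted p 0.55). Within co-expression cells the level on day 28 was below that on day 3 by a log2 value of −0.33 (SE 0.12, edgeR adjusted p 0.28), again without overlap. The difference from MLL-AF4 cells was 0.08 on day 28 (95% interval −0.17 to 0.34). The change between days differed between co-expression and MLL-AF4 cells by −0.56 (SE 0.20, edgeR adjusted p 0.25), and the difference between the days was thus not past the threshold. The comparisons with MLL-AF4 cells on day 3 share the same 3 libraries. Co-expression and MLL-AF4 cells also differed in whether MLL-AF4 was constitutive or inducible. An effect of added AF4-MLL cannot be told apart from this difference.

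In co-expression against MLL-AF4 cells on day 3, the 40 tested genes nearest to HCFC1 had a median log2 difference of 0.11 (range −0.71 to 0.74), none was called, and the median of chromosome X was −0.08. Of the adjacent genes, RENBP had a log2 difference of 0.20 (SE 0.31). HCFC1-AS1, which overlaps HCFC1, had 0.74 (SE 0.49, edgeR adjusted p 0.51) at a median of 7 counts per library. Reads in the overlap of both genes cannot be assigned to a strand in this assay. The co-expression library with the highest level of HCFC1, replicate 3, also had a mitochondrial share of 32.8%, the lowest in its group, and the part of this in the result was not tested. Without this library the log2 difference was 0.56 (edgeR adjusted p 0.049, in the range given above). Between days in co-expression cells, where HCFC1 differed by −0.33, the 40 nearest genes had a median of −0.23 (29 of 40 below 0, 3 called). In co-expression against AF4-MLL cells on day 3, where HCFC1 differed by 0.35, their median was 0.07.

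Menin and LEDGF, which hold the N-terminal part of MLL on chromatin, showed no called difference. MEN1 (chromosome 11, 64803516 to 64811294) on day 3 had 54.7, 48.2 and 67.0 CPM in MLL-AF4 cells, 63.0, 83.9 and 79.4 CPM in AF4-MLL cells and 63.3, 58.9 and 64.2 CPM in co-expression cells. On day 28 all 9 libraries lay between 53.0 and 73.6 CPM. AF4-MLL cells had the highest mean on day 3, but its lowest library lay below the highest MLL-AF4 library. The difference between these groups was 0.36 (SE 0.16, 95% interval 0.05 to 0.67, edgeR adjusted p 0.45). In the other comparisons the log2 differences of MEN1 ran from −0.23 to 0.14. PSIP1 (chromosome 9, 15464066 to 15510970), which overlaps SNAPC3, ranged from 4.47 to 18.5 CPM, and its groups overlapped in all 9 comparisons. Its log2 differences ran from −0.53 to 0.30 with a median SE of 0.32, and the 95% intervals reached from −1.21 to 0.90. For PSIP1, the intervals thus reached past a 2-fold difference towards lower values.

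Of the 4 core subunits that activate the SET domain, WDR5 varied most between groups. WDR5 is the adaptor that binds MLL through its WIN motif. Its levels on day 3 were 15.6, 11.4 and 18.5 CPM in MLL-AF4 cells, 26.3, 21.7 and 18.5 CPM in AF4-MLL cells and 24.0, 19.4 and 14.3 CPM in co-expression cells. On day 28 they were 21.4, 16.2 and 28.6 CPM in MLL-AF4 cells, 24.7, 28.2 and 27.9 CPM in AF4-MLL cells and 20.7, 15.6 and 18.6 CPM in co-expression cells. The AF4-MLL libraries lay above the MLL-AF4 libraries on day 3, the nearest pair by a narrow margin, and above the co-expression libraries on day 28. On day 3 AF4-MLL cells were above MLL-AF4 cells by 0.57 (SE 0.28, 95% interval 0.02 to 1.12, edgeR adjusted p 0.51). Leaving out AF4-MLL replicate 1 gave 0.36. On day 28 co-expression cells were below AF4-MLL cells by a log2 value of −0.54 (SE 0.21, 95% interval −0.97 to −0.12, edgeR adjusted p 0.21). Neither passed the test. The genes around WDR5 (chromosome 9, 134135199 to 134159968) differed alike, with a median of 0.38 on day 3 (37 of 40 genes above 0) and −0.36 on day 28 (38 of 40 below 0, of which 3 were called). Over chromosome 9 the medians were 0.13 and −0.25.

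RBBP5, ASH2L and DPY30, which form the remaining core and hold the nucleosome and the SET domain together, did not pass the test in any comparison, and none of their group pairs was without overlap. ASH2L, on chromosome 8 and with processed pseudogenes elsewhere that could share its reads, had 43.0 to 70.3 CPM and group means from 52.2 ± 13.3 to 60.01 ± 10.3 CPM. Its log2 differences lay between −0.12 and 0.14, and the outermost 95% limits were −0.40 and 0.42. A 2-fold change of ASH2L was outside the interval in each of the 9 comparisons. DPY30 (chromosome 2, 32011649 to 32039835) had 8.68 to 18.7 CPM, with log2 differences between −0.14 and 0.16 and limits of −0.70 and 0.77. RBBP5 (chromosome 1, 205086142 to 205121978) had 6.23 to 13.3 CPM, with log2 differences between −0.33 and 0.29 and limits of −0.96 and 0.95. Its mean of 13.2 counts per library went with the largest median SE of the core subunits (0.33).

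TASP1 encodes taspase 1, and its differences were the widest of the 10 genes but did not pass the test. In MLL-AF4 cells the levels were 11.2, 15.2 and 12.7 CPM on day 3 and 8.24, 6.69 and 8.95 CPM on day 28. In AF4-MLL cells it had 7.67, 17.4 and 6.17 CPM on day 3 and 11.1, 10.5 and 13.95 CPM on day 28. Co-expression cells had 8.67, 18.6 and 11.6 CPM on day 3 and 8.93, 9.96 and 6.65 CPM on day 28. The MLL-AF4 libraries of both days did not overlap, and on day 28 the AF4-MLL libraries lay above those of both other settings. The difference between days was −0.73 in MLL-AF4 cells (SE 0.37, 95% interval −1.47 to 0.01, edgeR adjusted p 0.32), 0.38 in AF4-MLL cells (SE 0.33) and −0.52 in co-expression cells (SE 0.32). The values of the latter settings moved with single libraries of day 3: in AF4-MLL cells the difference was 0.16 without replicate 3 and 0.73 without replicate 2, and in co-expression cells it was −0.75 without replicate 1 and −0.19 without replicate 2. The change between days was higher in AF4-MLL than in MLL-AF4 cells by 1.11 (SE 0.50, unadjusted p 0.027, edgeR adjusted p 0.44). Against AF4-MLL cells the change in co-expression cells was smaller by a log2 value of −0.90 (SE 0.46, unadjusted p 0.0496, edgeR adjusted p 0.96), and by −0.57 without co-expression replicate 2 of day 3. At a mean of 13.9 counts per library these differences were not past the threshold. TASP1 spans chromosome 20 from 13104772 to 13638932 and overlaps 6 other listed genes, of which 1 was tested.

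Neither acetyltransferase gene passed the test in any comparison. CREBBP encodes CBP, which binds the transactivation domain of MLL. On day 3 it had 10.04, 29.2 and 19.7 CPM in MLL-AF4 cells, 19.7, 18.8 and 13.1 CPM in AF4-MLL cells and 24.7, 18.6 and 12.3 CPM in co-expression cells. On day 28 it had 32.96, 29.6 and 23.3 CPM in MLL-AF4 cells, 23.4, 23.2 and 21.6 CPM in AF4-MLL cells and 22.1, 19.9 and 18.6 CPM in co-expression cells. The means of all 3 settings were higher on day 28, and those libraries were closer together. Between days CREBBP differed by 0.58 in MLL-AF4 cells (SE 0.25, 95% interval 0.09 to 1.08, edgeR adjusted p 0.22, and −0.30 when scaled by library size alone), by 0.40 in AF4-MLL cells (SE 0.24, without overlap, edgeR adjusted p 0.63) and by 0.15 in co-expression cells (SE 0.23). Single libraries of day 3 moved these values. In MLL-AF4 cells the difference was 0.25 without replicate 1 and 0.96 without replicate 2 (edgeR adjusted p 0.77 and 0.082). In AF4-MLL cells it was 0.23 without replicate 3, and in co-expression cells it ran from −0.08 without replicate 3 to 0.42 without replicate 1. On day 28 co-expression cells lay below MLL-AF4 cells by a log2 value of −0.48 (SE 0.21, 95% interval −0.90 to −0.06, edgeR adjusted p 0.34), without overlap. Around CREBBP (chromosome 16, 3725054 to 3880713) the 40 nearest genes had medians of 0.22 between days in MLL-AF4 cells and of −0.08 in the comparison of settings on day 28. Over chromosome 16 these medians were 0.17 and −0.0073. KAT8 encodes MOF, which acetylates histone H4, and ranged from 24.5 to 47.8 CPM. Its groups overlapped in all comparisons, with log2 differences between −0.23 and 0.17 and 95% limits of −0.59 and 0.54.

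Groups without overlap were counted in the same comparisons. There were 11 such cases in 90 for the members, 4 for HCFC1, 3 for TASP1 and 2 each for WDR5 and CREBBP. Between days 1 of 10 members was without overlap in MLL-AF4 cells, against 20.4% of all genes, and 1 of 10 in each of AF4-MLL cells (14%) and co-expression cells (14.2%). Each count is read beside the percentage of all genes. On day 3 it was 1 of 10 for co-expression against MLL-AF4 cells (19%), 1 of 10 for co-expression against AF4-MLL cells (16.5%) and 2 of 10 for AF4-MLL against MLL-AF4 cells (14%). On day 28 it was 1 of 10 (16%), 2 of 10 (16.8%) and 1 of 10 (13.4%) for the same pairs. The 3 tests of whether the change between days differed between settings called no member. Of all genes, 0.232% were called for co-expression against MLL-AF4, 0% for co-expression against AF4-MLL (892 genes at an unadjusted p under 0.05) and 0.317% for AF4-MLL against MLL-AF4 cells. In each of these tests 1 member had an unadjusted p under 0.05, namely HCFC1, TASP1 and TASP1, and DESeq2 called no gene at all in the 3 tests.

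**Figure D3:**
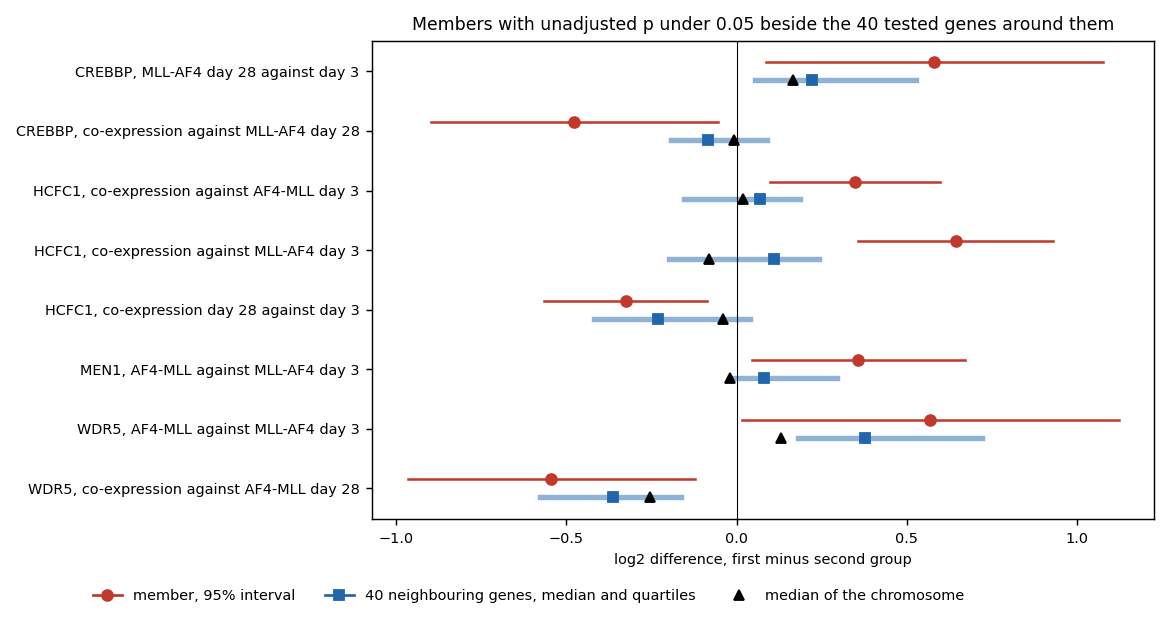
Log2 difference (x axis) with its 95% interval for the 8 member tests of days or settings with an unadjusted p under 0.05 (red), beside the median and quartiles of the 40 tested genes around the member (blue) and the median of its chromosome (black triangle). The neighbours of WDR5 sit at 0.38 and −0.36, close to WDR5 itself, and those of HCFC1 at 0.11 in the called comparison, below its interval.

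The 33 other genes of the same complexes, in 8 lists by role, gave 5 calls between days in MLL-AF4 cells (2.87% of all genes called), 2 in co-expression against MLL-AF4 cells on day 3 (1.81%), 1 in the matching test of the change between days (0.232%) and none in the other 9 tests. The lists were chosen with earlier results of these data known, and the counts are therefore not a test of the lists. In MLL-AF4 cells 4 genes rose from day 3 to day 28 and 1 fell, and the median over the 33 genes was 0.24 (all genes 0.0044, held near 0 by the scaling). NCOA6, a subunit of the KMT2C and KMT2D complexes, rose from 6.67 ± 1.29 to 17.5 ± 6.3 CPM (log2 1.38, SE 0.37, edgeR adjusted p 0.018). EP300, the paralog of CREBBP, rose from 23.3 ± 12.9 to 43.2 ± 2.6 CPM (log2 0.91, SE 0.22, edgeR adjusted p 0.0046). Of the 9 genes of the KAT8 complexes, 2 rose. MSL1, the scaffold of the MSL complex, rose from 10.1 ± 3.9 to 21.6 ± 2.8 CPM (log2 1.05, SE 0.32, edgeR adjusted p 0.042). NCOA6 and MSL1 started from few counts on day 3. In those MLL-AF4 libraries, RBBP5 at a mean of 10.2 CPM had only 9, 7 and 10 counts. KANSL1, the scaffold of the NSL complex, rose from 55.8 ± 2.9 to 83.5 ± 5.4 CPM (log2 0.58, SE 0.15, edgeR adjusted p 0.015, and −0.30 without a call when scaled by library size alone). DBF4, the activator of the CDC7 kinase and a partner of LEDGF, fell from 52.2 ± 6.2 to 33.03 ± 4.8 CPM (log2 −0.66, SE 0.19, edgeR adjusted p 0.026). By library size alone the log2 values of NCOA6, EP300 and MSL1 were 0.50, 0.03 and 0.18, without a call. DESeq2 called EP300, KANSL1 and DBF4 and gave no adjusted p for 25 of the 33 genes, among them NCOA6 and MSL1. The 4 SETD1 complex subunits, both HCF and WDR5 paralogs, the 5 partners of the MLL repression domain and the taspase substrate GTF2A1 gave no call.

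On day 3, co-expression cells were also above MLL-AF4 cells at MSL1, with 25.05 ± 6.2 CPM (log2 1.29, SE 0.30, edgeR adjusted p 0.0064), and at KANSL1, with 81.2 ± 10.9 CPM (log2 0.54, SE 0.15, edgeR adjusted p 0.036). The median over the 33 genes was 0.10, and DESeq2 called neither gene (adjusted p 0.058 and 0.14). The change of MSL1 between days was lower in co-expression than in MLL-AF4 cells by a log2 value of −1.54 (edgeR adjusted p 0.048, DESeq2 adjusted p 1). These 3 sets of tests share the MLL-AF4 libraries of day 3. Neighbouring genes differed in the same direction but less: around EP300, MSL1 and KANSL1 the 40 nearest genes had medians of 0.27, 0.29 and 0.28 between days in MLL-AF4 cells. Around DBF4 the median was −0.30, and around NCOA6 it was 0.10. Whole chromosomes had medians of 0.27 (chromosome 22, EP300) and 0.25 (chromosome 17, MSL1 and KANSL1) in this comparison. For chromosome 7 (DBF4) the median was −0.08 and for chromosome 20 (NCOA6) 0.13. The calls depended on single libraries. When MLL-AF4 replicate 1 of day 3 was left out, EP300 had a log2 difference of 0.56 (edgeR adjusted p 0.27), NCOA6 1.25 (0.13), KANSL1 0.53 (0.12) and DBF4 −0.61 (0.15), and only MSL1 was called. Without replicate 2 of that group MSL1 had 0.96 (0.16), NCOA6 1.34 (0.080), KANSL1 0.59 (0.053) and DBF4 −0.62 (0.12), and only EP300 was called. MSL1 was not called without replicate 3 of that group (0.83, adjusted p 0.25).

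Leaving out libraries of day 28 also ended calls in the comparison between days of MLL-AF4 cells. Without replicate 1 the edgeR adjusted p was 0.12 for MSL1 and 0.13 for DBF4. Without replicate 2 it was 0.077 for NCOA6 and 0.077 for DBF4, and without replicate 3 it was 0.11 for NCOA6, 0.11 for MSL1 and 0.068 for KANSL1. In co-expression against MLL-AF4 cells on day 3, KANSL1 was not called without any 1 of the 3 MLL-AF4 libraries (adjusted p 0.17, 0.12 and 0.099) or without replicate 2 or 3 of the co-expression cells (0.19 and 0.075). MSL1 was not called there without replicate 2 or 3 of the MLL-AF4 cells (0.061 and 0.098) or replicate 3 of the co-expression cells (0.087). For the change of MSL1 between days, leaving out a library ended the call in 8 of 12 cases (all 3 MLL-AF4 libraries and co-expression replicate 3 of day 3, MLL-AF4 replicates 1 and 3 and co-expression replicates 1 and 2 of day 28), with adjusted p from 0.052 to 0.23. Each gene kept its direction in all of these fits.

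In the 9 tests without a call among the other genes, the number at an unadjusted p under 0.05 ran from 1 to 9 of 33, beside 5.05% to 12.7% of all genes. DESeq2 made no call among the genes to which it gave an adjusted p. Between days it gave none to 15 of the 33 genes in AF4-MLL cells and to 3 in co-expression cells. The 9 of 33 belonged to the change between days in AF4-MLL against MLL-AF4 cells, where the share of all genes was 9.75%. The lowest p in each belonged to the following genes. Between days it was BOD1L1, a SETD1 complex subunit, at 0.74 in AF4-MLL cells (edgeR adjusted p 0.25) and OGT, the transferase that processes host cell factor 1, at −0.53 in co-expression cells (0.36). Between settings on day 3 it was BMI1, a Polycomb subunit, at 0.73 for co-expression against AF4-MLL (0.065) and DBF4 at −0.57 for AF4-MLL against MLL-AF4 cells (0.23). On day 28 it was WDR5B, the paralog of WDR5, at 1.04 for co-expression against MLL-AF4 (0.10), HDGF, a relative of LEDGF, at 0.53 for co-expression against AF4-MLL (0.15) and CXXC1 at 0.53 for AF4-MLL against MLL-AF4 cells (0.29). For the change between days it was OGT at −0.63 for co-expression against AF4-MLL (0.96) and DBF4 at 0.94 for AF4-MLL against MLL-AF4 cells (0.066).

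**Figure D4:**
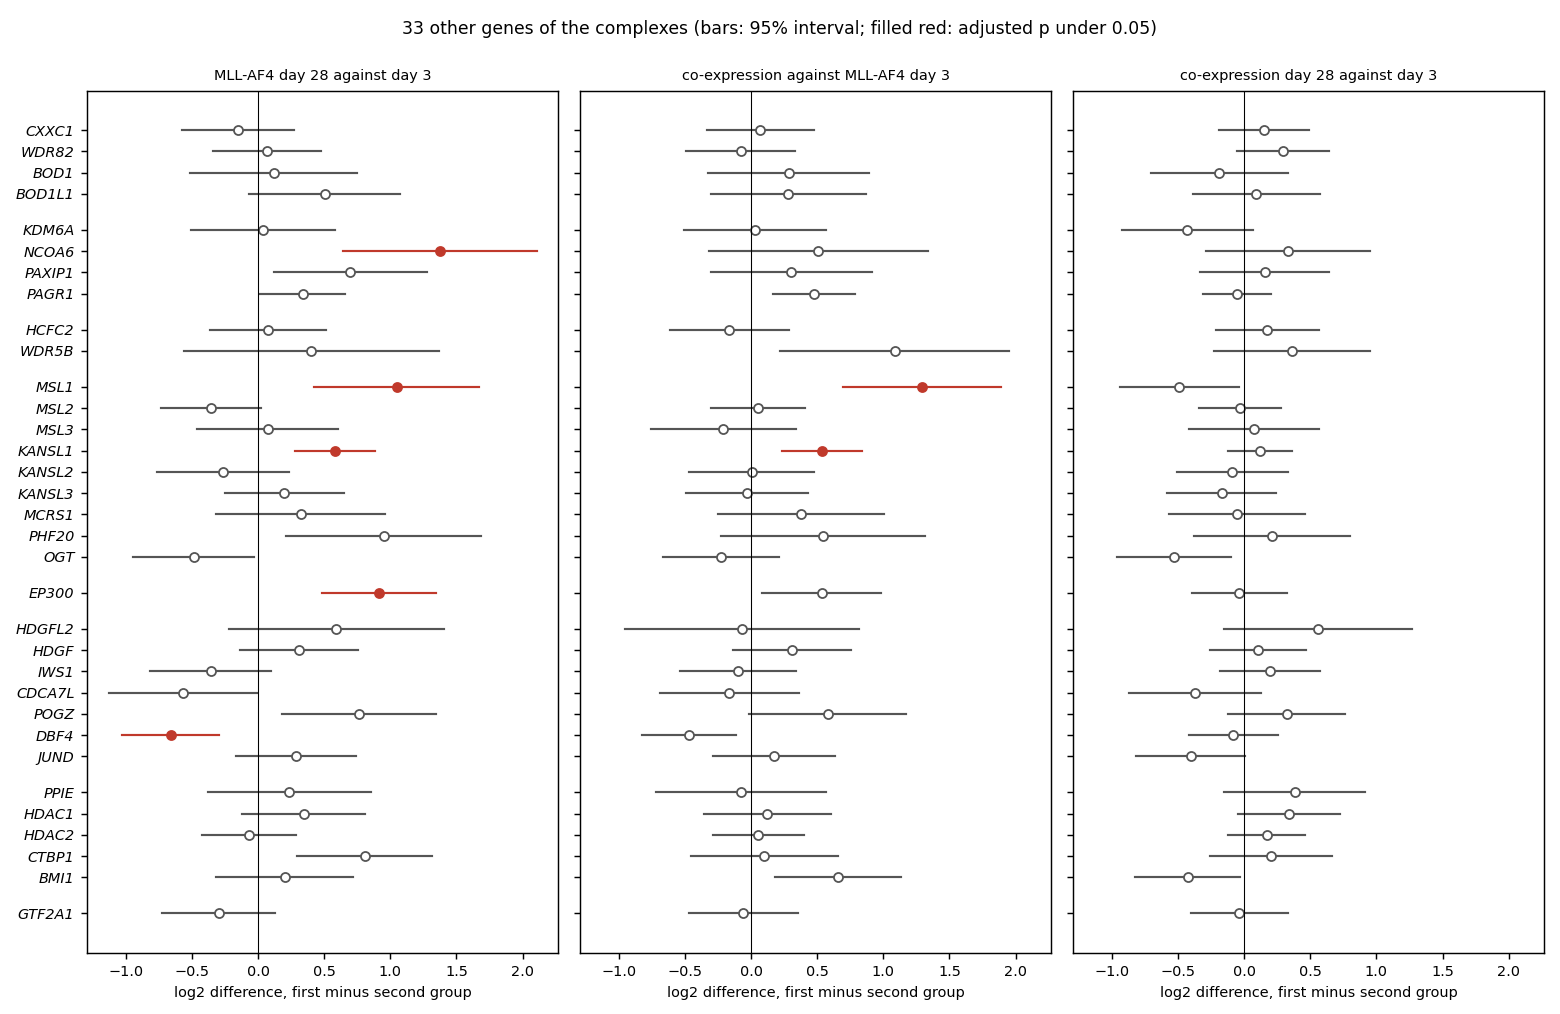
Log2 difference (x axis) with its 95% interval for 33 other genes of the complexes (y axis, gaps between lists) between days in MLL-AF4 cells (left), in co-expression against MLL-AF4 cells on day 3 (middle) and between days in co-expression cells (right). Filled red points mark the 5, 2 and 0 genes with an adjusted p under 0.05.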

How the data were processed

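ATAC-seq counts of 18 libraries of HEK293T cells were analysed, 3 in each of 6 groups taken from the labels. The authors deposited raw read counts per gene, as whole numbers without normalisation, and the submitters' processing notes name bcl2fastq, Bowtie2, HTSeq and the build GRCh38. Versions, the region counted per gene, duplicate handling and any insertion-site shift are not given in the sources used here. Counts were fitted in R 4.3.3 with edgeR 4.0.16: TMM scaling, filterByExpr (minimum count 10, total 15), 6 groups without covariates, quasi-likelihood F tests of 12 contrasts, Benjamini-Hochberg adjustment over 17660 genes and a threshold of 0.05. CPM use TMM-scaled library sizes. The 95% intervals use the SE and the degrees of freedom of the fit. Alternatives were DESeq2 1.42.0, other scalings (limma 3.58.1 for a loess offset) and filters, a replicate block and leaving out each library. Neighbours are 20 tested genes on each side in RefSeq order (GRCh38.p14). The members and the lists of 33 other genes were chosen with earlier results of these data known. All members are named, and of the other genes those called or, without a call, the gene with the lowest p. The titles number replicates BR1 to BR3 and the study calls its replicates biological, but what they shared (culture or transfection) is not given in the sources used here, and p-values measure only the spread between these libraries. The code was tested on simulated data. Totals per library run from 442159 to 3539937, and intervals do not cover duplicate reads.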

Additional observations from a re-analysis of the deposited data

How the results depend on the processing

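HCFC1 in co-expression against MLL-AF4 cells on day 3 was called in 26 of 27 alternatives. Many of these left out a library of a group outside the comparison and could hardly change the call. Among the libraries compared, the edgeR adjusted p was 0.051 without MLL-AF4 replicate 3 and 0.049 without co-expression replicate 3. The number of members called in this comparison ran from 0 to 1 when a library was left out, 0 being when MLL-AF4 replicate 3 of day 3 was left out. With the replicate number as a block, 1 member was called (HCFC1, log2 0.64, edgeR adjusted p 0.0049), and the block changed no other call of a member. It ended the call of MSL1 for the change between days (adjusted p 0.060). Libraries with the same number did not deviate together (correlations from −0.049 to 0.016, none of 9 contrasts with all pairs above 0.1), and the numbers were therefore not taken as pairs. Scaling by library size only, without TMM, moved the median of all genes between days by −0.87, −1.06 and −1.07 in MLL-AF4, AF4-MLL and co-expression cells, and 7, 9 and 10 members were then called lower on day 28. Under this scaling CREBBP in MLL-AF4 cells turned to −0.30 and KANSL1 to −0.30, and neither was called. Relative to the shift both stayed above the median. DESeq2 size factors, a loess offset, filters, leaving out mitochondrial genes, fitting only the groups compared and DESeq2 kept the count of members called in all contrasts. A loess offset ended the calls of MSL1 (adjusted p 0.052) and DBF4 (0.069) between days in MLL-AF4 cells. It also ended the call of MSL1 for the change between days in co-expression against MLL-AF4 cells, which 6 of 17 alternatives kept. The calls of the other genes of the complexes were repeated under alternatives chosen after seeing the data: apart from library size only, the counts ran from 1 to 5, 0 to 2 and 0 to 1. Of the 4 members under 20 counts per library, the 95% intervals of RBBP5 and DPY30 lay within a 2-fold difference in the 9 comparisons, and those of PSIP1 and TASP1 reached past it.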
